A study of Homo sapiens with 18 samples.

Results

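TNFSF18 and a set of TNF superfamily genes were described in ECV304 cells given interleukin-1β (IL-1β) with aminaphtone or with medium in its place. The set held 10 genes, of 18377 genes that have an array row annotated with a single symbol. Its ligands were TNFSF18, TNF, TNFSF9, TNFSF10 and TNFSF15, and its receptors were TNFRSF11B, TNFRSF9, TNFRSF12A, TNFRSF21 and CD40. The members were chosen with earlier results of these arrays known, and TNFSF18 was chosen from its difference with aminaphtone at 3 h, so that difference is given as a description with no test. The 10 genes had 12 rows, since TNF had 3, whose values were identical. All 10 genes passed the filter on low signals, a mean log2 signal above 6.193 over the 18 arrays. TNFSF15 passed it by 0.029 and TNFSF10 by 0.41 on the log2 scale.

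Gene expression had been measured on 18 arrays, each with RNA of 1 sample. The groups were IL-1β at 100 IU/ml with aminaphtone at 6 µg/ml for 1, 3 or 6 h, and IL-1β at 100 IU/ml with an equal volume of medium for 1, 3 or 6 h (control), with 3 samples each. All groups were grown to confluence in 10% serum and held in 1% serum for 24 h beforehand, and no cells without IL-1β were measured. Aminaphtone is a drug given for fragile capillaries. ECV304 was labelled as an endothelial line with epithelial features too, and it is known from later authentication work as a derivative of a bladder carcinoma line, which limits it as a model of endothelium. The labels call the replicates independent without saying whether they came from separate cultures. Each p-value therefore sets a difference between group means against a spread among samples that may be only technical.

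TNF superfamily ligands are trimeric proteins, held in the membrane or cut from it, that gather receptors of the TNF receptor superfamily on the same or a neighbouring cell. Receptors with a death domain bind adaptors such as TRADD and FADD, and many of the others bind TRAF proteins, which lead to NF-κB and MAP kinases. IL-1β reaches NF-κB by its own receptor, and several ligands and receptors of the family are among the target genes of NF-κB.

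The log2 signals ran from 1.85 to 14.25, with array medians from 6.93 to 7.06. Pairs of control arrays at 1 h correlated at 0.964 to 0.986, against 0.986 to 0.997 within the other groups. Of 10 endothelial markers, PECAM1, VWF, KDR, TEK and EMCN lay under the filter. ESAM (mean log2 signal 8.82), CLDN5 (7.73), ROBO4 (7.11), CDH5 (6.99) and TIE1 (6.40) lay above it. All 10 epithelial and urothelial markers lay above it. Of 9 leukocyte markers, PTPRC, CD3E, CD3D, CD2 and MS4A1 lay under it, and CD68 (8.65), NKG7 (7.52), CD14 (6.90) and ITGAM (6.39) above it. The mean log2 signal of the endothelial list ran from 6.13 to 6.28 with aminaphtone and from 6.19 to 6.53 in controls at 1 h, from 6.25 to 6.37 with aminaphtone and from 6.41 to 6.56 in controls at 3 h, and from 6.32 to 6.49 with aminaphtone and from 6.40 to 6.52 in controls at 6 h. That of the epithelial list ran from 8.21 to 8.23 with aminaphtone and from 8.32 to 8.34 in controls at 6 h, and overlapped at 1 and 3 h. The part of these lists in the results below was not tested. In RNA from whole cultures, fewer cells that express a gene and less RNA per cell cannot be told apart.

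TNFSF18, the ligand of the receptor GITR (TNFRSF18) on T cells and other cells, was lower with aminaphtone at each time. At 1 h its log2 signal was 6.46, 6.33 and 6.75 with aminaphtone, against 8.34, 6.99 and 8.02 in controls. At 3 h it was 6.94, 7.30 and 7.38 with aminaphtone, against 9.03, 9.69 and 9.16 in controls. At 6 h it was 6.46, 6.98 and 7.14 with aminaphtone, against 8.63, 8.05 and 9.20 in controls. The groups did not overlap at any of the times, and the closest approach was at 1 h, where control replicate 2 lay near the aminaphtone samples.

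The difference at 3 h, which chose the gene, was -2.09 on the log2 scale, or 4.24-fold lower with aminaphtone (7.21 ± 0.237 with aminaphtone and 9.29 ± 0.349 in controls, SD, n = 3 each). At 6 h the difference was -1.77 (SE 0.316, 95% interval -2.43 to -1.10), or 3.41-fold lower, with limma's adjusted p = 0.0438 over the 15796 transcript clusters tested. That call held in 6 of the 18 fits that left out 1 array each, with an adjusted p of up to 0.323 (without control replicate 3 at 6 h), and it was lost when arrays were centred on their medians (limma's adjusted p = 0.0708) and when the 3 h arrays, which chose the gene and enter the pooled variance, were left out of the fit (limma's adjusted p = 0.141). At 1 h the difference was -1.27 (SE 0.316, 95% interval -1.94 to -0.60), or 2.41-fold lower, with limma's adjusted p = 0.127, and an adjusted p = 0.0273 with the replicate number as a block. It passed in 2 of the 18 fits that left out 1 array, with an adjusted p of up to 0.406 over the 18 (without aminaphtone replicate 1 at 1 h). Those were the fits without control replicate 1 of that time (-0.99, limma's adjusted p = 0.0174), where 8516 of all transcript clusters passed, and without control replicate 2 (-1.67, limma's adjusted p = 0.0283). Without the 3 h arrays limma's adjusted p was 0.186. Replicate numbers paired the arrays at 1 h, as given under the processing. Averaged over 1 and 6 h and fitted on the 12 arrays of those times alone, so that no 3 h array entered the difference or its error, TNFSF18 differed by -1.52 (SE 0.24, 95% interval -2.04 to -0.999), or 2.86-fold lower, with limma's adjusted p = 0.0347. Of all transcript clusters tested, 0.0823% were lower by that average. With the variance pooled over all 18 arrays the SE was 0.223 and limma's adjusted p = 0.0054, with 0.114% of all lower. These averages were added after the data were seen.

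Set in order, the mean log2 signal of TNFSF18 was 9.29 ± 0.349 in controls at 3 h, 8.63 ± 0.573 in controls at 6 h, 7.78 ± 0.707 in controls at 1 h, 7.21 ± 0.237 with aminaphtone at 3 h, 6.86 ± 0.359 with aminaphtone at 6 h and 6.51 ± 0.213 with aminaphtone at 1 h (SD, n = 3 each). Each neighbouring pair in that order overlapped in its samples. Within controls the level was higher at 3 h than at 1 h by 1.51 on the log2 scale, a value that uses the 3 h controls that chose the gene and is given with no test. At 6 h controls stood 0.84 above controls at 1 h (limma's adjusted p = 0.0575). In aminaphtone samples the mean was 0.69 above that at 1 h by 3 h and 0.35 above it by 6 h (limma's adjusted p = 0.504 for 6 h against 1 h). GITR itself, TNFRSF18, named here for its role and outside the rule for other genes, averaged 8.25 ± 0.13 with aminaphtone and 8.39 ± 0.219 in controls at 6 h (log2 signal, SD, n = 3 each), a difference of -0.14 (SE 0.17, limma's adjusted p = 1.00).

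Promoter sequences of the ligands and receptors were read from a set of RefSeq promoters (GRCh38.p14), in which 7 of the 10 members have an entry. The sequences were searched on both strands for a κB consensus, the AP-1 heptamer TGANTCA and the TATA hexamer TATAAA. The window ran from 250 bases before to 50 after the gene's start. CD40, TNFRSF12A and TNFRSF11B have no entry in that set, although each matched a RefSeq gene by ID. The 250 bases before the start are shown for TNFSF18 (chr1:173050942-173051191, minus strand), the member with the widest differences with aminaphtone, for TNFSF10 (chr3:172523431-172523680, minus strand), the ligand with the widest differences between times, and for TNFRSF9 (chr1:7940840-7941089, minus strand), a receptor that rose. Capitals mark the matches, and positions count from -1 at the last base before the start.
TNFSF18: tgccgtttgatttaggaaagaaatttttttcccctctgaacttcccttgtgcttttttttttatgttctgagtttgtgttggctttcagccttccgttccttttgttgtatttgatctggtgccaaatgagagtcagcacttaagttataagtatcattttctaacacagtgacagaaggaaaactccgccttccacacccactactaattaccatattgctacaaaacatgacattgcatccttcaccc
TNFSF10: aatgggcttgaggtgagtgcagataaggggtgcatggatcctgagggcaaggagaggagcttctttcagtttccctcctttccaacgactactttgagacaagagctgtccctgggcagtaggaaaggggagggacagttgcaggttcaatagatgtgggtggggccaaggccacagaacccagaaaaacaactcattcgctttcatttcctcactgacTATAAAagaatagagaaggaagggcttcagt
TNFRSF9: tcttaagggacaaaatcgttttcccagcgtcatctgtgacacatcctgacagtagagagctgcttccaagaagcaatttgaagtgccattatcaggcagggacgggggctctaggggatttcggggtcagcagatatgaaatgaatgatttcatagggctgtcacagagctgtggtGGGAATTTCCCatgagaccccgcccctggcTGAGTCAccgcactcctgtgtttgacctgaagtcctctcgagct
TNFSF18 holds none of these motifs in its window, and neither does TNFRSF21, a receptor that also rose. TNFSF10 has the TATA hexamer at -31 to -26, as have TNF at -29 to -24 and TNFSF9 at -30 to -25. TNFRSF9 has matches to the κB consensus on both strands, which overlap each other (-74 to -65 and -73 to -64), and the AP-1 heptamer at -44 to -38. TNFSF15 has the AP-1 heptamer at -120 to -114. Of 35116 promoters in the table, 5.91% hold the κB consensus, 7.71% the AP-1 heptamer and 11.5% the TATA hexamer in the same window, and 1, 2 and 3 of the 7 members hold them, in that order. A match is a description of the sequence only.

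**Figure D1:**
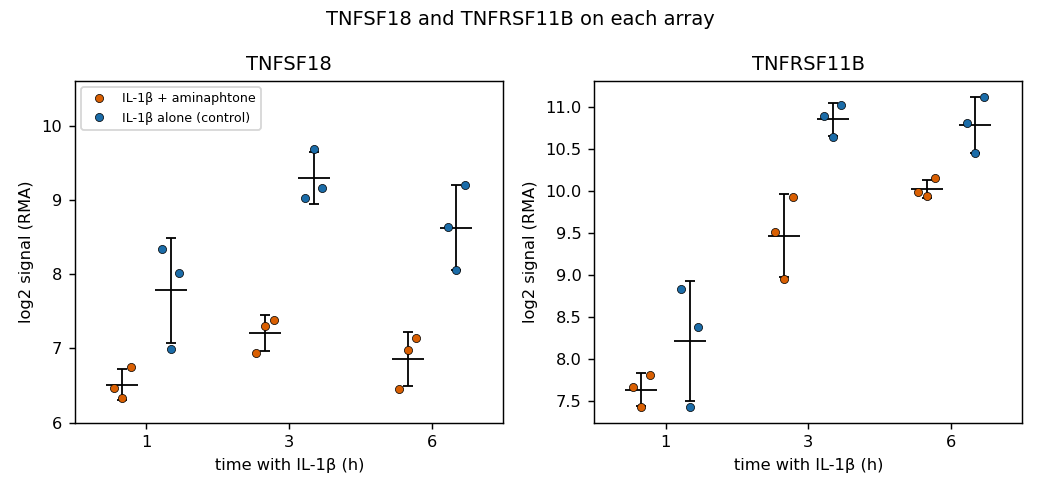
Log2 signal (y axis) of TNFSF18 and TNFRSF11B at 1, 3 and 6 h with IL-1β (x axis), with aminaphtone in orange and left of the controls in blue; points are arrays, and lines are group means with SD, n = 3 each. TNFSF18 shows no overlap of the groups at any of the times, and TNFRSF11B overlaps at 1 h, where a control lies at 7.42.

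TNFRSF11B encodes osteoprotegerin, a secreted decoy receptor that binds the ligands RANKL and TRAIL (TNFSF10). It rose with time in both arms and was lower with aminaphtone averaged over the times. At 1 h its log2 signal was 7.67, 7.42 and 7.81 with aminaphtone, against 8.83, 7.42 and 8.38 in controls. At 3 h it was 9.52, 8.95 and 9.93 with aminaphtone, against 10.90, 10.64 and 11.02 in controls. At 6 h it was 9.99, 9.94 and 10.15 with aminaphtone, against 10.81, 10.45 and 11.12 in controls. The groups overlapped at 1 h, through control replicate 2, and at 3 and 6 h every aminaphtone sample lay under every control.

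TNFRSF11B differed by -0.58 at 1 h (SE 0.287, limma's adjusted p = 0.172), by -1.39 at 3 h (2.62-fold lower, SE 0.287, limma's adjusted p = 0.124) and by -0.77 at 6 h (SE 0.287, limma's adjusted p = 0.994), none of which passed the threshold of 0.05. The average over the 3 times was -0.91 (SE 0.165, 95% interval -1.26 to -0.56), or 1.88-fold lower, with limma's adjusted p = 0.0154. It stayed below the threshold in all 18 fits that left out an array, with a highest p of 0.0436 (without aminaphtone replicate 2 at 6 h). Averaged over 1 and 6 h alone it was -0.67 (limma's adjusted p = 0.235), so the call rests on the 3 h arrays too. Over the 18 arrays TNFRSF11B correlated with TNFSF18 at Pearson's r = 0.697, rank 27 among 13804 genes, a description over arrays that share the same treatment and time structure.

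Across the 10 members, the comparisons of aminaphtone with control passed the threshold in few cases. At 1 h 0 of 10 members passed (0.0886% of all transcript clusters did, in either direction), with 1 member at an unadjusted p under 0.05, as were 30.8% of all. With the replicate block at 1 h, TNFSF18 and TNFRSF12A were lower (limma's adjusted p = 0.0273 and 0.0487), against 4.75% of all transcript clusters. At 3 h the 1 member that passed was TNFSF18, the gene this contrast chose (0.038% of all), and nothing is read from that count. At 6 h it was TNFSF18 alone (0.108% of all), with 3 members at an unadjusted p under 0.05, as were 3.93% of all. Averaged over the 3 times, TNFRSF11B was lower (0.405% of all were lower). TNFSF18 passed as lower too, but its average holds the 3 h samples that chose it, and nothing is read from that call.

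The members' median difference was -0.27 at 1 h, against -0.10 over all transcript clusters tested. It was 0.14 at 3 h, against 0.00 over all, and 0.02 at 6 h, against -0.01 over all. Every sample with aminaphtone lay under every control for TNFSF18 alone at 1 h (7.55% of all transcript clusters did so). At 3 h (4.99% of all) and at 6 h (7.25% of all) this held for TNFRSF11B, and also for TNFSF18 and TNFSF15. TNFSF18 was chosen on its 3 h samples, so nothing is read from its place at 3 h. TNFSF15 passed the filter through its controls and 1 h samples, so nothing is read from its place at either time. At 6 h TNF and CD40 lay above their controls in every sample (8.86% of all did so). The interaction of treatment and time passed for 0 of 10 members (0.038% of all), with limma's adjusted p from 0.602 to 0.980 and 0 members at an unadjusted p under 0.05, as were 9.23% of all. For TNFSF18 this test holds the 3 h samples that chose the gene, and TNFSF10 passed the filter through its 1 h samples alone. Nothing is read from the interaction for these genes.

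**Figure D2:**
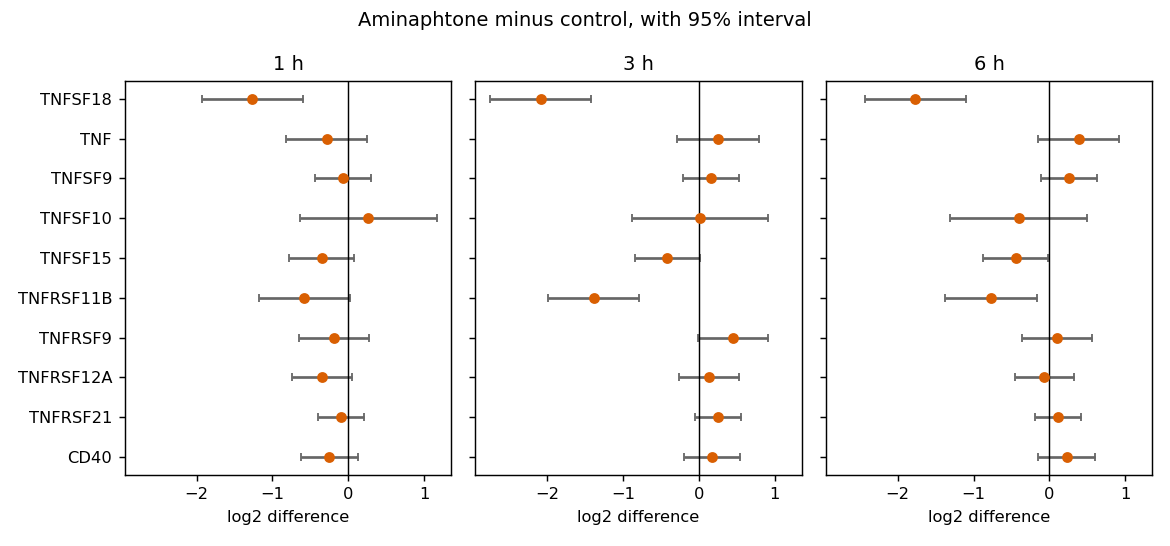
Difference in log2 signal, aminaphtone minus control (x axis), of the 10 members (y axis) at 1, 3 and 6 h, with 95% intervals of the fit over 18 arrays. TNFSF18 lies at -1.27, -2.09 and -1.77 and TNFRSF11B at -0.58, -1.39 and -0.77, and the values of the other members lie between -0.44 and 0.44. The intervals of TNFSF18 at 3 h, the difference that chose it, and of TNFSF15 are drawn without a test being read from them.

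TNFSF15 (TL1A), a ligand of the death receptor DR3 that endothelial cells are known to make, had low signals throughout. With aminaphtone it was 5.91, 6.35 and 6.56 at 1 h, 5.94, 6.09 and 5.72 at 3 h, and 6.08, 5.69 and 5.84 at 6 h (log2 signal). In controls it was 6.83, 6.09 and 6.95 at 1 h, 6.19, 6.56 and 6.25 at 3 h, and 6.24, 6.30 and 6.39 at 6 h. The groups overlapped at 1 h only. Its differences were -0.35, -0.42 and -0.44 at 1, 3 and 6 h, and the average of -0.40 (SE 0.117) did not pass the threshold (limma's adjusted p = 0.117). Every 3 h and 6 h value with aminaphtone lay under 6.193, the filter's level for the mean. The means there were 5.92 and 5.87, so the gene passed the filter through its controls and 1 h samples. Its differences are therefore a description with no fold, and nothing is read from the test.

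TNF, the founding cytokine of the family, had its highest mean signal at 1 h and its lowest at 6 h in both arms. With aminaphtone its log2 signal was 11.19, 11.28 and 11.54 at 1 h, 11.14, 11.75 and 10.83 at 3 h, and 10.26, 10.18 and 10.07 at 6 h. In controls it was 11.19, 11.98 and 11.70 at 1 h, 10.46, 11.57 and 10.92 at 3 h, and 9.74, 9.80 and 9.81 at 6 h. In both arms every 6 h sample lay under every 1 h and 3 h sample. TNF fell with time, with a change at 6 h of -1.17 with aminaphtone (2.25-fold, limma's adjusted p = 0.004) and of -1.84 in controls (SE 0.253, 3.58-fold, limma's adjusted p = 9.71e-05). At 6 h the difference with aminaphtone was 0.39 (95% interval -0.15 to 0.92, limma's adjusted p = 1.00).

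TNFSF9 (4-1BBL), the ligand of the T cell receptor 4-1BB (TNFRSF9), also declined with time. With aminaphtone its log2 signal was 10.07, 10.12 and 10.51 at 1 h, 9.90, 9.88 and 9.67 at 3 h, and 9.80, 9.53 and 9.50 at 6 h. In controls it was 9.95, 10.38 and 10.59 at 1 h, 9.50, 9.82 and 9.66 at 3 h, and 9.52, 9.50 and 9.04 at 6 h. All 6 h samples lay under all 1 h samples in each arm. It fell in both arms, with a change of -0.63 at 6 h with aminaphtone (limma's adjusted p = 0.02, past the threshold in 15 of 18 fits that left out an array) and of -0.95 in controls (limma's adjusted p = 0.000991).

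TNFSF10 (TRAIL) is the ligand of the death receptors DR4 and DR5, and its promoter is shown above beside that of TNFSF18. It had the widest range of the members. With aminaphtone its log2 signal was 8.34, 7.93 and 8.59 at 1 h, 5.52, 6.07 and 5.91 at 3 h, and 5.43, 5.55 and 5.87 at 6 h. In controls it was 9.08, 6.78 and 8.20 at 1 h, 5.16, 6.39 and 5.89 at 3 h, and 6.04, 5.53 and 6.50 at 6 h. All samples at 3 and 6 h lay under all 1 h samples of the same arm, and control replicate 2 was the lowest of the 1 h samples. Its means at 3 and 6 h, between 5.62 and 6.02, lay under the filter's level of 6.193, so the gene was tested through its 1 h samples alone, and its differences between times are given with no test and no fold. At 3 h it stood at -2.45 from 1 h with aminaphtone and at -2.20 in controls. At 6 h it stood at -2.67 with aminaphtone and at -2.0 in controls. The difference of aminaphtone from control was 0.26, 0.02 and -0.41 at 1, 3 and 6 h, with intervals that span 0, and the value at 1 h was 0.80 without control replicate 1 (limma's adjusted p = 0.0783) and -0.35 without control replicate 2 (limma's adjusted p = 0.716).

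The receptors TNFRSF9, TNFRSF21 and CD40 rose with time in both arms. TNFRSF9 (4-1BB), best known as a costimulatory receptor of T cells, had log2 signals of 6.12, 6.34 and 6.68 at 1 h, 7.93, 8.26 and 7.57 at 3 h, and 7.53, 7.95 and 8.16 at 6 h with aminaphtone. In controls they were 6.41, 6.55 and 6.73 at 1 h, 7.08, 7.76 and 7.59 at 3 h, and 7.75, 7.51 and 8.06 at 6 h. Every later sample lay above every 1 h sample of its arm. By 3 h TNFRSF9 had risen by 1.54 with aminaphtone (2.90-fold, limma's adjusted p = 0.000212) and by 0.91 in controls (limma's adjusted p = 0.0112). By 6 h it had risen by 1.50 with aminaphtone (limma's adjusted p = 0.00019) and by 1.21 in controls (limma's adjusted p = 0.000883).

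CD40 is the receptor of CD40L and activates endothelial, epithelial and antigen-presenting cells. Its log2 signal with aminaphtone was 9.37, 9.28 and 9.91 at 1 h, 10.95, 10.89 and 10.62 at 3 h, and 10.82, 10.82 and 11.00 at 6 h. In controls it was 9.61, 9.53 and 10.17 at 1 h, 10.51, 10.71 and 10.72 at 3 h, and 10.65, 10.49 and 10.81 at 6 h. No later sample reached down to the 1 h samples of its arm. By 6 h CD40 had risen by 1.36 with aminaphtone (SE 0.177, 2.57-fold, limma's adjusted p = 6.65e-05) and by 0.88 in controls (SE 0.177, 1.84-fold, limma's adjusted p = 0.0019).

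TNFRSF21 (DR6), a receptor with a death domain, had log2 signals of 8.28, 8.29 and 8.60 at 1 h, 9.35, 9.38 and 9.02 at 3 h, and 9.19, 9.10 and 9.16 at 6 h with aminaphtone. In controls they were 8.25, 8.39 and 8.82 at 1 h, 8.91, 9.11 and 8.97 at 3 h, and 9.02, 8.96 and 9.14 at 6 h. The later samples lay above the 1 h samples of the same arm. By 6 h it had risen by 0.76 with aminaphtone (limma's adjusted p = 0.0015) and by 0.55 in controls (limma's adjusted p = 0.00958). Over the 18 arrays CD40 correlated at Pearson's r = 0.973 with TNFRSF21 and 0.952 with TNFRSF9, with array, time and treatment in common.

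TNFRSF12A (Fn14), the receptor of TWEAK, did not pass the threshold between times in either arm. Its log2 signal ran from 11.16 to 11.52 at 1 h, 11.23 to 11.82 at 3 h and 11.11 to 11.29 at 6 h with aminaphtone, and from 11.32 to 11.91, 11.14 to 11.75 and 11.16 to 11.29 at the same times in controls. In controls every 6 h sample lay under every 1 h sample, with a difference of -0.46 (limma's adjusted p = 0.0792). The arms overlapped at each time. The difference at 1 h was -0.35 (SE 0.186, limma's adjusted p = 0.194, or 0.0487 with the replicate block).

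**Figure D3:**
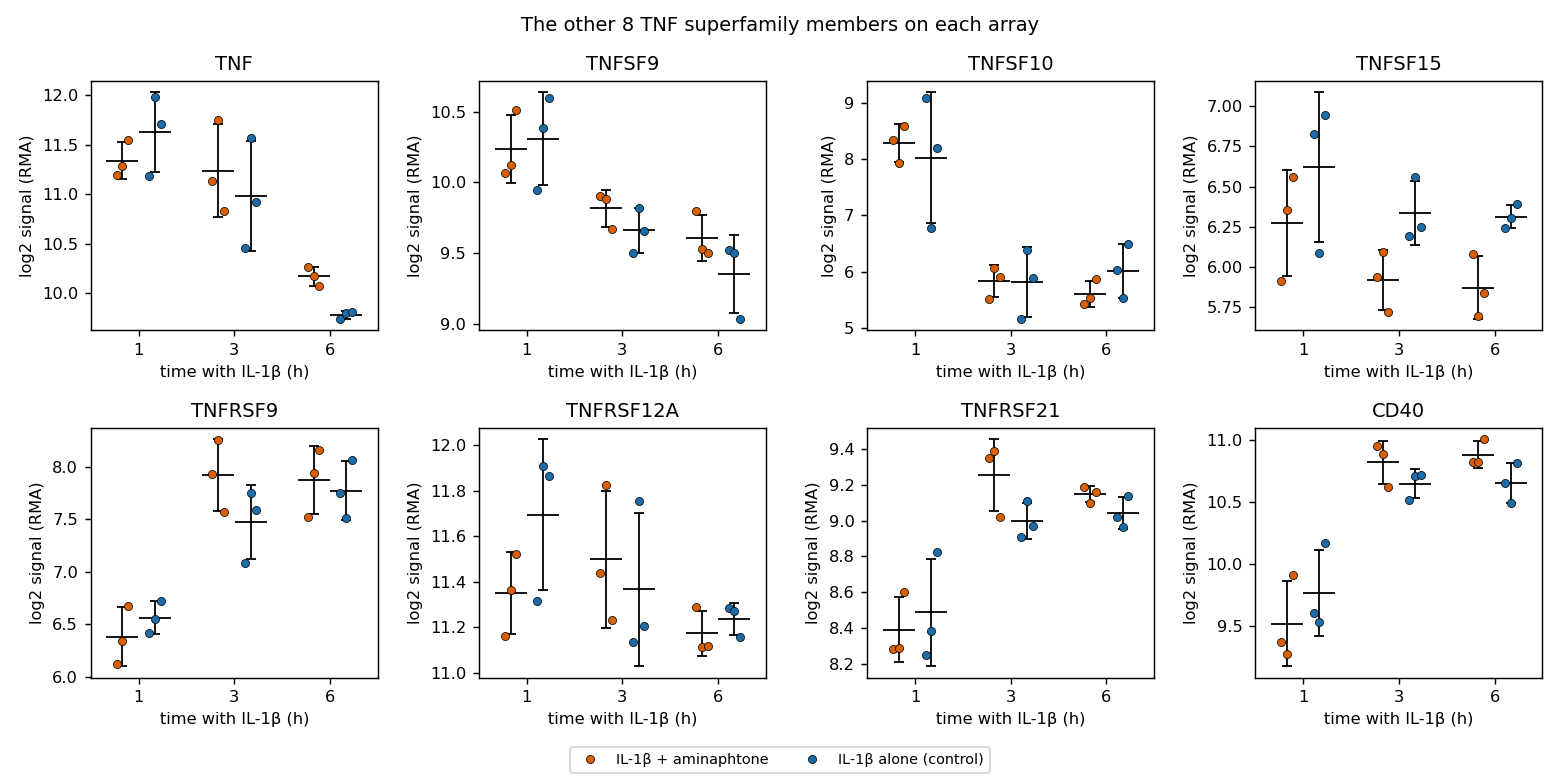
Log2 signal (y axis) of the other 8 members at 1, 3 and 6 h with IL-1β (x axis), with aminaphtone in orange and left of the controls in blue; points are arrays, and lines are group means with SD, n = 3 each. TNF and TNFSF9 decline with time in both arms, TNFSF10 has its highest signals at 1 h, TNFRSF9, TNFRSF21 and CD40 rise, and the y axes differ between panels.

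Between times, counts are given for the 8 members other than TNFSF18, chosen on 3 h samples, and TNFSF10, tested through its 1 h samples alone. TNFSF15, which passed the filter by 0.029, is among the 8 and passed the threshold in none of these comparisons. At 3 h against 1 h with aminaphtone, 4 of the 8 were higher (5.09% of all transcript clusters were) and 0 lower (5.45% of all). In controls 4 were higher (4.81% of all) and 1 lower (7.98% of all). At 6 h against 1 h, 4 were higher with aminaphtone (6.01% of all) and 2 lower (10.7% of all), and in controls 4 were higher (11.3% of all) and 2 lower (15.2% of all). The higher members in each of these were TNFRSF11B, TNFRSF9, TNFRSF21 and CD40, and the lower ones at 6 h were TNF and TNFSF9. At 3 h TNFSF9 was lower in controls (limma's adjusted p = 0.0228, and 0.159 with aminaphtone). When the fit held just the controls at 1 and 3 h, TNFRSF11B alone passed between 3 and 1 h in controls. That fit holds fewer arrays, and its share over all transcript clusters is not given. The lost calls are therefore not read as particular to the members. The median difference of the 8 was 0.50 at 3 h and 0.29 at 6 h with aminaphtone, and 0.11 and 0.12 at the same times in controls, against medians between -0.02 and 0.02 over all transcript clusters.

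TNFRSF11B had the largest rises of the members. It had risen by 1.83 at 3 h and 2.39 at 6 h with aminaphtone (3.56-fold and 5.24-fold, limma's adjusted p = 0.000495 and 2.94e-05), and by 2.64 and 2.58 at the same times in controls (6.24-fold and 5.98-fold, limma's adjusted p = 1.76e-05 and 1.32e-05). Between 3 and 6 h, 0 of the 8 members passed with aminaphtone (0.266% of all), with 1 at an unadjusted p under 0.05, as were 9.82% of all. In controls 1 member passed (0.513% of all), which was TNF, with a difference of -1.20 (limma's adjusted p = 0.0434, past the threshold in 5 of 18 fits that left out an array). The 3 h and 6 h comparisons of an arm share its 1 h samples. Which arm changed more was tested by the interaction above, which no member passed and from which nothing is read for TNFSF18 and TNFSF10.

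**Figure D4:**
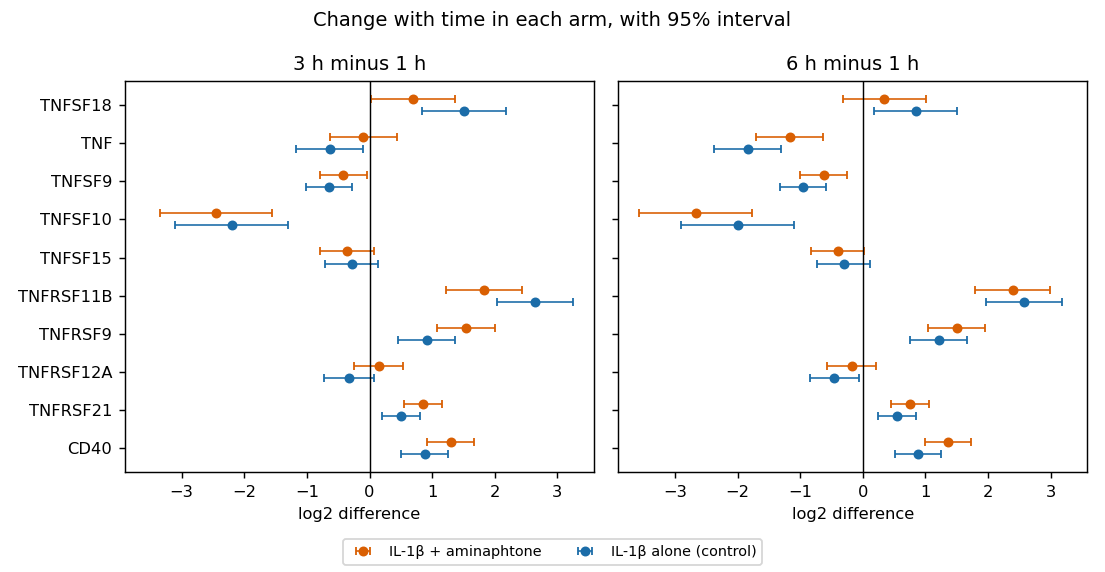
Difference in log2 signal from 1 h (x axis) of the 10 members (y axis) at 3 h and at 6 h, with aminaphtone in orange above the controls in blue; bars are 95% intervals of the fit over 18 arrays. At 6 h TNFRSF11B lies at 2.39 with aminaphtone and 2.58 in controls, and TNFSF10 at -2.67 with aminaphtone and -2.0 in controls. The intervals of TNFSF18 at 3 h and of TNFSF10 are drawn without a test being read from them.

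Of 13 other ligands of the family, 10 were on the arrays and 4 above the filter (CD70, LTA, LTB and TNFSF14). None of these passed between aminaphtone and control without the block, at any of the times or on average, nor did any of the 20 other receptors tested. At an unadjusted p under 0.05 (limma) there were 1, 0 and 0 of these ligands and 4, 3 and 1 of these receptors at 1, 3 and 6 h, and 2 ligands and 3 receptors on average, against 30.8%, 6.50% and 3.93% of all transcript clusters at these times and 18.9% on average. With the replicate block at 1 h, where 15.6% of all transcript clusters passed, CD70, the ligand of CD27, was lower, with a difference of -0.62 (limma's adjusted p = 0.0346), and 4 receptors were lower and 1 higher, among them TNFRSF1A, the main receptor of TNF, at -0.47 (limma's adjusted p = 0.0396). CD70 rose with time in aminaphtone samples, by 0.71 at 3 h (limma's adjusted p = 0.00661) and 0.58 at 6 h (limma's adjusted p = 0.0143), and did not pass in controls. The interaction of treatment and time passed for 0 of these ligands, receptors or adaptors, with 0, 1 and 3 of them at an unadjusted p under 0.05 (limma), against 9.23% of all.

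Of the 20 other receptors, 4 were higher and 2 lower at 3 h against 1 h with aminaphtone (5.09% and 5.45% of all were), against 1 and 1 in controls (4.81% and 7.98% of all). At 6 h against 1 h it was 2 higher and 2 lower with aminaphtone (6.01% and 10.7% of all), against 2 and 0 in controls (11.3% and 15.2% of all). TNFRSF10A (DR4), a death receptor of TRAIL, rose in each of these, by 1.04 at 3 h and 0.89 at 6 h with aminaphtone and by 0.68 and 0.71 at the same times in controls. TNFRSF11A (RANK), the receptor of RANKL, rose by 0.72 and 0.65 with aminaphtone at 3 and 6 h, and by 0.44 in controls at 6 h. FAS, another death receptor, fell by 0.67 with aminaphtone at 6 h, a call lost without the 3 h arrays (limma's adjusted p = 0.0501). The median differences of this list lay between -0.01 and 0.16 in these 4 comparisons.

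Of 26 adaptors, ubiquitin ligases and death signalling genes tested, 1 passed between aminaphtone and control without the block. TRAF1, an adaptor of several receptors and a target of NF-κB, was lower, with a difference of -0.56 averaged over the 3 times (SE 0.0932, limma's adjusted p = 0.0103), with limma's adjusted p = 0.0693 over 1 and 6 h alone, or 0.191 with no 3 h array in the fit. At an unadjusted p under 0.05 (limma) there were 7, 1 and 0 genes of this list at 1, 3 and 6 h, and 4 on average, against 30.8%, 6.50%, 3.93% and 18.9% of all. With the replicate block at 1 h, 2 of the 26 were higher and 3 lower, where 15.6% of all passed in either direction. They were TRAF1 (-0.76), TRAF4 (-0.68) and MAP3K14 (-0.82), and with higher signals MAP3K7 (0.76) and CHUK (0.49), with limma's adjusted p from 0.0254 to 0.0481. At 3 h against 1 h 4 were higher and 0 lower with aminaphtone (5.09% and 5.45% of all were), against 9 and 2 in controls (4.81% and 7.98% of all). At 6 h against 1 h it was 4 and 1 with aminaphtone (6.01% and 10.7% of all), against 10 and 4 in controls (11.3% and 15.2% of all). TRAF1 rose by 1.64 at 3 h with aminaphtone (limma's adjusted p = 5.04e-06) and by 1.47 in controls (limma's adjusted p = 1.98e-05). MAP3K14 (NIK), the kinase that starts the non-canonical NF-κB pathway downstream of receptors such as CD40, fell in both arms, with a change at 6 h of -1.22 with aminaphtone (limma's adjusted p = 0.00329) and of -2.08 in controls (limma's adjusted p = 3.59e-05). TRAF3, which holds MAP3K14 in check, rose by 0.63 with aminaphtone and by 0.66 in controls at 6 h. The median difference of this list at 6 h was 0.12 with aminaphtone and 0.47 in controls, against 0.02 and -0.01 over all transcript clusters.

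The genes whose log2 signal followed TNFSF18 most closely over the 18 arrays, of 13804 compared, were CYP24A1 (Pearson's r = 0.945), the vitamin D hydroxylase, OXTR (0.878), the oxytocin receptor, EDN1 (0.873), the precursor of endothelin-1, CCL22 (0.869), a chemokine of the CC family, and IGFL1 (0.861). The arrays share treatment and time, and this order is a description. Within groups, after each group's mean was taken off, r with TNFSF18 was 0.702 for CYP24A1, 0.576 for OXTR and between 0.213 and 0.291 for the other 3. Their differences with aminaphtone at 6 h, on the log2 scale, were -0.60 for CYP24A1, -0.40 for OXTR, -0.98 for EDN1, -0.99 for CCL22 and -1.27 for IGFL1.

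Among the members, levels also varied together within groups. After group means were taken off, TNFSF18 correlated with TNFSF10 at Pearson's r = 0.915 over the 18 arrays, while over the arrays as they stand it was -0.19. TNF and TNFRSF12A correlated at 0.940 within groups. Of the 45 pairs of members, the lowest value over the arrays as they stand was -0.85, between TNFSF9 and TNFRSF11B. Control replicate 2 at 1 h, which had the lowest TNFSF18, TNFSF10, TNFSF15 and TNFRSF11B of its group, contributes to such values, and its part was not tested.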

How the data were processed

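RNA of each sample had been hybridised to its own Affymetrix Human Gene 1.0 ST array. The authors deposited a log2 signal for every transcript cluster, summarised by RMA with Affymetrix Expression Console, per the submitters' processing notes. Which arrays were normalized together and the genome build are not given in the sources used here. Of 28869 transcript clusters, 19310 carry a single gene symbol from the platform annotation, and 19279 of those matched a RefSeq gene by ID. A gene with several transcript clusters was represented by the one with the highest mean.

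Samples were grouped by treatment and time from their labels. The 15796 annotated transcript clusters with a mean log2 above the 25th percentile (6.193) were tested with limma 3.58.1 (R 4.3.3), with 1 mean per group over 18 arrays, 12 residual degrees of freedom and two-sided p-values adjusted by Benjamini and Hochberg over all of them. A result passed below 0.05. For arrays, their number limits the precision. The calculation was tested on simulated data. The members and lists were chosen with earlier results of these data known. Of each list, up to 4 genes past the threshold were named per comparison, by p; those outside that rule are marked as such.

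Replicate numbers were checked by correlating deviations from group means. A comparison counted as paired where each same-number correlation was above 0.1. By that rule they paired aminaphtone with control arrays at 1 h (0.746, 0.411 and 0.322) and control arrays at 3 and 1 h (0.313, 0.359 and 0.258), from the data and not the labels. No other comparison met it. Some numbers still went together elsewhere, as for the arms at 6 h (0.456, -0.086 and 0.711) and for aminaphtone at 6 and 3 h (0.662, -0.270 and 0.691). The alternatives were the filter, median centring, the variance prior, only the arrays compared, the replicate block and leaving out each array. Fits without the control 1 h arrays or without the 3 h arrays and the average over 1 and 6 h were added after the data were seen.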

Additional observations from a re-analysis of the deposited data

How the results depend on the processing

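Of 100 differences of members in the comparisons, 31 passed the threshold, TNFSF18 at 3 h and TNFSF10 between times included. That total serves only as a base for the alternatives, and nothing is read from it about the members. The shares over all transcript clusters are given by comparison above. Among 2490 values under the alternatives, 62 lost that call, 25 gained it, 0 reversed a call, and 40 changed sign without a call. For the 31 named differences of list genes, 38 of 777 values lost the call and 0 reversed it. Centred on array medians, the members that passed numbered 0 at 3 h, 0 at 6 h (main value 1 each) and 0 for controls at 6 against 3 h (main value 1). With only the arrays compared, 1 member passed for controls at 3 against 1 h (main value 7). This setting could not differ for the average, which uses all arrays. Without the control 1 h arrays, an alternative chosen after seeing the data, 2 members passed at 3 h, TNFRSF11B with limma's adjusted p = 0.00685, and 1 with aminaphtone at 6 against 3 h. Averaged over 1 and 6 h only, also chosen after seeing the data, 1 passed, against 2, also with no 3 h array in the fit. Without the 3 h arrays, likewise added, 0 members passed at 6 h. Shares over all transcript clusters are not given for these settings, so the shifts are not read as particular to the members. The cause of these shifts was not tested.

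With each array left out, the members that passed between aminaphtone and control numbered 0 to 2 at 1 h, 0 to 2 at 3 h, 0 to 1 at 6 h and 2 to 3 on average. Between times they numbered 5 to 5 at 3 against 1 h, 6 to 7 at 6 against 1 h and 0 to 1 at 6 against 3 h with aminaphtone. Over all transcript clusters these fits gave 790 to 2641, 1643 to 4008 and 4 to 260. In controls the members numbered 5 to 9, 7 to 9 and 0 to 1 for the same times. All transcript clusters gave 988 to 5719, 2586 to 7083 and 16 to 309 there. TNFSF18 and TNFSF10 are included in these counts. The interaction gave 0 throughout (3 to 2995 of all). Between aminaphtone and control, the count over all transcript clusters at 1 h ran from 6 to 8516, the highest without control replicate 1 of that time, against 14 with all arrays. It ran from 0 to 48 at 3 h and from 2 to 38 at 6 h. For the average it ran from 50 to 3444, against 131 with all arrays.

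With the replicate block, 2 members passed at 1 h and 2 at 3 h (TNFRSF11B with limma's adjusted p = 0.0499). TNFSF18 passed in controls at 6 against 1 h (limma's adjusted p = 0.0438). No other member's call changed with the pairing. Over all transcript clusters the block gave 2465 at 1 h, 10 at 3 h (6 without it), 26 at 6 h (17 without it) and 735 for the average. Outside 1 h and the controls at 3 against 1 h the rule for pairing was not met for every replicate number. A stricter filter left out TNFSF10 and TNFSF15, and TNF alone had other rows, with identical values.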

Other observations

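Values are given for 3 genes of the adaptor list that limit signalling by TNF receptors, picked after their values were seen and so with no test. TNFAIP3 (A20), a ubiquitin-editing brake on NF-κB, had a mean log2 signal of 11.41 ± 0.285, 11.20 ± 0.222 and 10.95 ± 0.0537 at 1, 3 and 6 h with aminaphtone, and of 11.64 ± 0.605, 11.11 ± 0.169 and 10.71 ± 0.297 at these times in controls (SD, n = 3 each). Its 6 h mean minus its 1 h mean was -0.46 with aminaphtone and -0.93 in controls. For CYLD, a deubiquitinase that acts on the same complexes, that difference was 0.87 with aminaphtone and 1.27 in controls. For OTULIN, which removes linear ubiquitin chains, it was 0.37 with aminaphtone and 0.52 in controls.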
